A study of Mus musculus with 14 samples.

Results

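Osteo-chondrogenic progenitors (OCPs, S9+Pαhi cells) were compared with S9-Pαhi limb bud mesenchymal progenitors (LMPs) of the same embryonic stage across all expressed genes. The comparison was set by the sample labels: 3 OCP libraries against 3 S9-Pαhi LMP libraries, which are 6 of the 14 RNA-seq libraries of the series. Of the 24454 genes in the count table, 15125 had enough counts to be tested, and the other genes were not tested. Forelimb buds of mouse embryos were sorted by FACS at embryonic stage E10.5. S9 stands for an EGFP reporter placed behind an IRES in the Sox9 locus, which both populations carry, and Pαhi for a high surface level of the growth factor receptor PDGFRα. OCPs were EGFP-positive and Pαhi. The LMPs were EGFP-negative, Pαhi and without surface JAG1 and SCA-1. Dead cells and cells with endothelial, blood, leukocyte or epithelial surface proteins had been gated out of both. Each library held cells of many pooled forelimb buds of embryos of a mixed Swiss Albino background and of both sexes, so the 3 libraries of a population are separate pools and not single embryos. The other 8 libraries, from chondroblasts at E11.5 and from S9-JAG1+ and S9-SCA-1+ cells at E10.5, entered the model for the spread between replicates.

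SOX9 is the transcription factor that commits limb mesenchyme to cartilage. It acts with SOX5 and SOX6 on genes of the cartilage matrix, such as the type II, IX and XI collagens. In the early limb bud the SOX9-positive cells lie in the core, whereas the mesenchyme under the ectoderm and at the posterior margin is kept immature by FGFs from the apical ridge, by SHH from the posterior mesenchyme and by Wnt signals from the ectoderm. BMPs act on both, and their antagonists set where they do so.

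The 6 libraries held between 20316583 and 27404749 counts. A level is given in CPM, counts per 1000000 counts after scaling of the library totals. A gene with up to 3 counts in a library, which is 0.109 to 0.149 CPM, was treated as not told from an absent one. The CPM of different genes are not comparable, since they are not corrected for gene length. The log2 fold change (log2FC) is that of OCPs minus S9-Pαhi LMPs, given with its standard error (SE) from the same fit, and p values are those of the quasi-likelihood test of edgeR, adjusted after Benjamini-Hochberg over all 15125 tested genes. Genes count as called where the adjusted p did not exceed 0.1 and the log2FC reached 1.2 in either direction. Replicates of a population differed by far more than the sampling of reads would give, so that none was a copy of another. The chi-square per degree of freedom between replicates was 13.4 to 22.0 in LMPs and 20.3 to 76.3 in OCPs, with the highest value between OCP replicates 1 and 2.

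The labels do not give the ways in which 3 of the 6 libraries stood apart. OCP replicate 2 counted long genes more and short genes less than the others, and its values are followed below. OCP replicate 1 and LMP replicate 3 held transcripts of genes known from the hindlimb. Pitx1, the hindlimb transcription factor, stood at 29.4, 4.14 and 0.0723 CPM in OCP replicates 1, 2 and 3 and at 2.11, 2.67 and 38.2 CPM in LMP replicates 1, 2 and 3. The level was high in 1 library of each population and at most 4.14 CPM in the other 4. Hoxc10, a posterior Hox gene, showed the same pair of libraries, with 8.48, 1.81 and 0 CPM in OCPs and 0, 0.226 and 7.92 CPM in LMPs. The forelimb factor Tbx5 was high in all 6 libraries, with 215, 240.1 and 263 CPM in OCPs and 306, 315 and 247 CPM in LMPs. Lin28a, an RNA-binding protein of immature cells, was also highest in the same 2 libraries (55.8, 12.03 and 15.05 CPM against 8.78, 6.84 and 42.6). None of these 4 genes was called, though Lin28a was without LMP replicate 3 (log2FC 1.82, adjusted p = 0.093). Tbx4, the T-box gene of the hindlimb, differed from them in that it was called higher in OCPs, at 45.2, 38.4 and 42.7 CPM against 10.7, 8.88 and 21.5 (log2FC 1.63, adjusted p = 0.00057). OCP replicate 1 and LMP replicate 3 were the highest libraries of their populations here too, and without both the log2FC was 2.05 (adjusted p = 1.3e-05). The counts of called genes are also given without the 2 libraries.

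The gate was seen in the RNA. Sox9 stood at 434, 432 and 445 CPM in OCPs against 64.3, 57.2 and 65.5 in S9-Pαhi LMPs, a log2 fold change of 2.81 ± 0.19 (adjusted p = 8.3e-07), and each OCP library lay above each LMP library. Its RNA was thus not absent from the EGFP-negative cells. Pdgfra stood at 667, 746 and 743 CPM in OCPs against 437, 530.1 and 360.3 in S9-Pαhi LMPs (log2FC 0.70 ± 0.18, adjusted p = 0.019), present in both and under the fold limit. Jag1, the Notch ligand whose surface protein was excluded from the LMP gate, had 16.9, 20.9 and 21.3 CPM in OCPs against 10.53, 13.2 and 11.7 in S9-Pαhi LMPs (log2FC 0.74, adjusted p = 0.011). Ly6a, which encodes SCA-1, was near the limit of detection in all 6 libraries (0.406, 0.0476 and 0.289 CPM against 0.203, 0.188 and 0.299). As the sort used Sox9, its difference is a check of the labels and not a result.

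In all, 732 genes (4.84% of those tested) were called, 526 higher in OCPs (3.48%) and 206 lower (1.36%). The genes higher in OCPs included those of cartilage matrix and the forkhead genes Foxc1 and Foxc2, and those higher in LMPs included the Shh and Msx genes and other regulators of the distal and posterior limb bud. Without the fold limit, 1779 genes passed on the higher side (11.8%) and 1263 on the lower side (8.35%), 20.1% of the tested genes together. In 696 of the 732 called genes (4.6% of those tested) the 3 libraries of one population all lay above the 3 of the other, and this was so in 26.7% of all tested genes. Many of the called genes were low: in 213 of them (29.1%) neither population reached a mean of 1 CPM. Their median absolute log2 fold change was 1.87, and 320 changed at least 4-fold. Without OCP replicate 1 and LMP replicate 3, 783 genes were called, 573 higher and 210 lower. Of these, 450 (85.6% of the 526 and 78.5% of the 573) and 175 (85.0% of the 206 and 83.3% of the 210) were called in both. In bulk RNA, fewer cells that express a gene and less RNA per cell cannot be told apart.

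**Figure D1:**
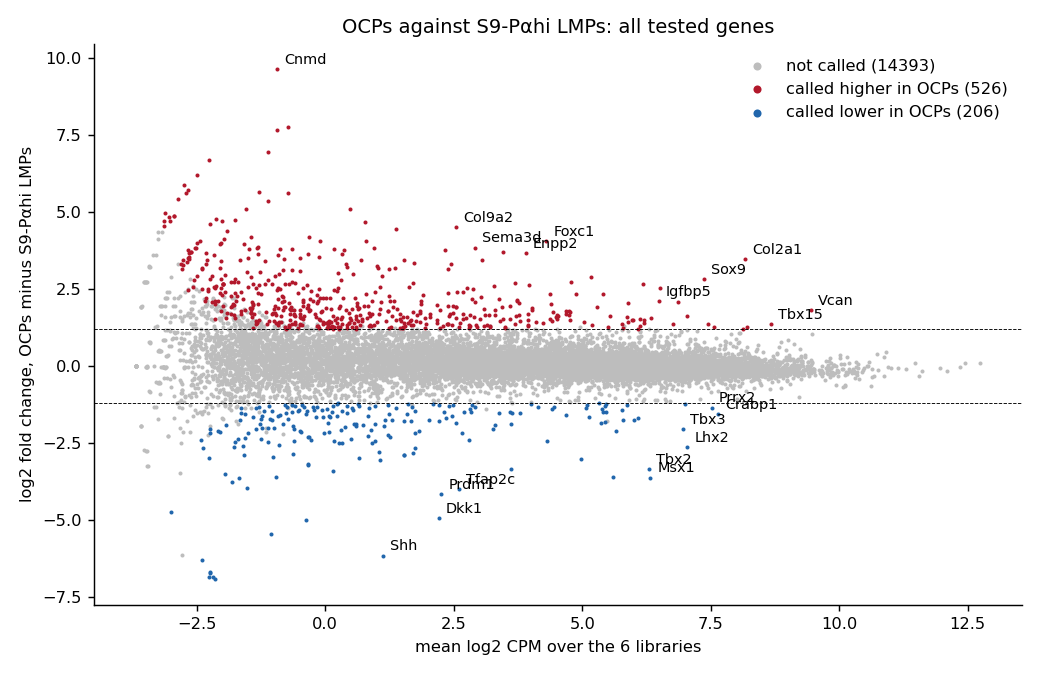
Mean log2 CPM over the 6 libraries (x axis) and log2 fold change of OCPs minus S9-Pαhi LMPs (y axis) of the 15125 tested genes. Called genes are coloured, 526 higher in OCPs and 206 lower, dashed lines mark the fold limit of 1.2, and the fitted change of genes that are absent from one population, such as Cnmd at the top, depends on the prior count.

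Genes of the cartilage matrix were called mainly on the OCP side. Of 32 tested genes of the list, 9 were called higher and 1 lower (31.3% called, against 4.84% of all tested genes). The median log2 fold change of the list was 0.50, beside 0.02 for all tested genes, and it was 0.21 without OCP replicate 2 and 0.44 with genes absent from a population set at their bound. Without OCP replicate 1 and LMP replicate 3, 10 were called higher and 1 lower. Col2a1, the main collagen of cartilage, stood at 695, 1228 and 1045 CPM in the OCP libraries and at 114, 94.6 and 60.8 CPM in the LMP libraries. The lowest OCP library was far above the highest LMP library, and the log2FC was 3.46 ± 0.25 (adjusted p = 1.2e-06), an 11.01-fold difference. The 3 chains of type IX collagen, which sits on the type II fibrils, moved together. Col9a1 had 196, 222 and 239 CPM in OCPs against 43.5, 33.7 and 38.0 in S9-Pαhi LMPs, a log2 fold change of 2.51 (adjusted p = 8.5e-07). For Col9a2 the values were 14.9, 36.6 and 34.6 CPM against 1.22, 1.69 and 0.797, the largest log2 fold change of any gene that met the rule for naming (log2FC 4.50 ± 0.36, adjusted p = 3.5e-06). Col9a3 had 10.1, 25.8 and 22.6 CPM against 1.75, 1.65 and 0.797 (log2FC 3.76 ± 0.35, adjusted p = 1.3e-05). In both Col9a2 and Col9a3 OCP replicate 1 was well below the other OCP libraries but above every LMP library.

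Col11a2, a chain of type XI collagen, was called with 3.61, 12.2 and 7.60 CPM against 2.28, 2.26 and 1.10 (log2FC 2.02, adjusted p = 0.0061), whereas its partner Col11a1, with 99.2, 122 and 120.3 CPM against 63.8, 87.0 and 62.8, stayed under the fold limit (log2FC 0.68, adjusted p = 0.002). Cnmd, which encodes the secreted cartilage protein chondromodulin, had 1.62, 5.28 and 4.67 CPM in OCPs and no count in the 3 LMP libraries. Against 3 counts in each LMP library the mean of the OCPs was at least 30.1-fold higher (adjusted p = 0.00034). Matn4, a matrilin that links matrix fibrils, had 0.852, 4.71 and 5.97 CPM in OCPs, 285 counts in all, against 1 count in the 3 LMP libraries, a ratio of 277 (95% interval 49.3 to 10976) for the counting error alone. The other genes called higher, Matn1 and Cytl1, were near the limit of detection, with 9 and 21 counts over the 3 OCP libraries and none in LMPs. With no count in LMPs their fitted log2FC is not given, and Cytl1 was not called without OCP replicate 3 (adjusted p = 0.13), nor Matn1 without any library other than OCP replicate 1 (adjusted p = 0.15 to 0.20). The called gene on the other side was Lox, which crosslinks collagen and elastin, at 1.78, 2.85 and 4.05 CPM in OCPs against 11.1, 9.85 and 7.22 in S9-Pαhi LMPs (log2FC -1.69, adjusted p = 0.0033). Hapln1, the link protein of proteoglycan aggregates, had 4.18, 4.23 and 2.68 CPM against 5.33, 6.13 and 6.53 (log2FC -0.70, adjusted p = 0.075) and was not called. Acan, the proteoglycan of mature cartilage, was low and on the other side, with 0.203, 0.143 and 0.0362 CPM against 0.163, 0.451 and 0.747 (log2FC -1.80, adjusted p = 0.19). It was called lower by the likelihood ratio test of edgeR (adjusted p = 0.07) and by DESeq2 (adjusted p = 0.069). Col10a1, Snorc and Ucma, of later chondrocytes, were too low to be tested. Wwp2, the ubiquitin ligase whose gene carries the miR-140 locus, reached 124, 233 and 188 CPM against 83.8, 86.2 and 82.1, just under the fold limit (log2FC 1.11, adjusted p = 0.00074), and was called without OCP replicate 1 (log2FC 1.32, adjusted p = 8.6e-06).

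Among 32 tested transcription factors of cartilage and bone development, 6 were called higher and 3 lower (28.1% called, against 4.84% of all tested genes; median log2FC 0.21, or 0.15 with absent genes at their bound). Of the partners of SOX9, Sox5 was called, with 84.9, 106 and 100.04 CPM in OCPs against 31.5, 39.3 and 38.4 in S9-Pαhi LMPs (log2FC 1.41 ± 0.14, adjusted p = 2.5e-05). Sox6 had 31.8, 44.8 and 51.7 CPM against 19.3, 28.8 and 17.7 (log2FC 0.96, adjusted p = 0.0083) and stayed under the fold limit, though not without LMP replicate 2 (log2FC 1.21, adjusted p = 0.0031). Also under it was the related Sox8 with 15.1, 15.5 and 17.98 CPM against 8.46, 7.03 and 8.07 (log2FC 1.05, adjusted p = 0.0011). The largest log2FC of the list with a clear level was that of the forkhead factor Foxc1, at 52.9, 111 and 81.1 CPM in OCPs and 5.86, 3.65 and 5.38 CPM in LMPs (log2FC 4.05 ± 0.31, adjusted p = 2.1e-06). Its relative Foxc2 was low but separate, with 3.85, 5.23 and 6.18 CPM against 0.935, 1.13 and 1.54 (log2FC 2.10, adjusted p = 0.0005). Nfatc2, a calcium-regulated factor, had 21.7, 27.8 and 31.8 CPM against 2.85, 2.22 and 2.34 (log2FC 3.45, adjusted p = 1.5e-06). All 3 of these factors lay apart in every library. Barx2, a homeobox gene, had 3.53, 4.33 and 4.96 CPM against 0.732, 0.715 and 0.0996 (log2FC 2.99), and Nkx3-2, a homeobox gene of early cartilage, was called from 10 counts in OCPs and none in LMPs, which is too few for a fold change, and it was not called without LMP replicate 3 (adjusted p = 0.11). Lower in OCPs were the homeobox genes Dlx5 (0.892, 0.903 and 1.30 CPM against 9.88, 7.41 and 5.73, log2FC -2.88, adjusted p = 9.9e-05) and Dlx6 (0.284, 0.380 and 0.434 CPM against 1.14, 0.978 and 0.947, log2FC -1.46) and the paired box gene Pax9 (0.284, 0.190 and 0.434 CPM against 2.81, 4.32 and 2.84, log2FC -3.40). The genes of bone differentiation Runx2 (24.99, 51.4 and 53.4 CPM against 39.8, 33.8 and 14.4, log2FC 0.55, adjusted p = 0.33) and Sp7 (2.47, 1.71 and 2.17 CPM against 2.48, 2.67 and 2.59, log2FC -0.28, adjusted p = 0.52) were not called. Runx2 overlapped between the populations. Twist1, a repressor of RUNX2 and of early differentiation, was at 316, 408 and 367 CPM against 636, 573 and 579, under the fold limit (log2FC -0.71, adjusted p = 0.0024).

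Matrix genes outside cartilage went both ways. Of 41 tested genes of fibrous and basement membrane matrix, 7 were called higher and 3 lower (24.4% called, against 4.84% of all tested genes), with a median of 0.00. Vcan, which encodes the large proteoglycan of condensing mesenchyme, had 787, 1969.8 and 1331 CPM in OCPs against 333, 482 and 354 in S9-Pαhi LMPs (log2FC 1.81 ± 0.24, adjusted p = 0.00023). OCP replicate 2 was highest, and all OCP libraries lay above all LMP libraries. Thbs1, a matrix glycoprotein, had 38.7, 92.8 and 76.1 CPM against 16.8, 15.01 and 9.12 (log2FC 2.33, adjusted p = 0.0001), and Col12a1, a fibril-associated collagen, had 69.4, 135 and 125 CPM against 38.3, 55.4 and 23.5 (log2FC 1.49, adjusted p = 0.0084). Col8a1, Col5a3, Lum and Ogn were also called higher, of which Lum was not called without OCP replicate 3 (log2FC 1.14, adjusted p = 0.1). Col5a3 was not called without OCP replicate 2, LMP replicate 1 or LMP replicate 3 (adjusted p = 0.20, 0.13 and 0.18) nor by DESeq2 (adjusted p = 0.11). Ogn was not called without OCP replicate 2 or 3 (adjusted p = 0.19 and 0.13) or LMP replicate 1 or 3 (adjusted p = 0.19 each). Lower in OCPs were Bgn, which encodes the small proteoglycan biglycan (14.2, 10.7 and 16.9 CPM against 35.6, 35.01 and 34.6, log2FC -1.33, adjusted p = 5e-05), Col13a1 (0.487, 0.666 and 0.434 CPM against 5.12, 3.38 and 3.89, log2FC -2.98) and Col14a1 (0.933, 1.66 and 1.30 CPM against 7.85, 8.42 and 8.57, log2FC -2.68). The call of Bgn was lost without OCP replicate 2 (log2FC -1.19, adjusted p = 5.1e-05). The main fibrillar collagens Col1a1 (log2FC -0.19, adjusted p = 0.55) and Col3a1 (log2FC -0.21, adjusted p = 0.5) overlapped between the populations. Col4a1 and Col4a2, the basement membrane chains transcribed from a shared promoter, had log2 fold changes under the limit (log2FC -0.61 and -0.61, adjusted p = 0.00014 and 0.00013).

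Of 35 tested enzymes that build the sugar chains of proteoglycans, 2 were called (5.71%, against 4.84% of all tested genes), both higher and both heparan sulfate 3-O-sulfotransferases. Hs3st3b1 had 120.5, 101 and 147 CPM in OCPs against 35.1, 31.0 and 23.1 in S9-Pαhi LMPs (log2FC 2.05 ± 0.20, adjusted p = 1.6e-05) and Hs3st3a1 22.6, 31.3 and 40.6 CPM against 11.3, 9.21 and 5.93 (log2FC 1.83, adjusted p = 0.00056). The exons of Hs3st3a1 overlap a transcript of the opposite strand over 32.9% of their length, and the counting is not stated to use strand. For the 32 genes of adhesion and condensation the counts were 0 higher and 2 lower (6.25% called, near the 4.84% of all tested genes). These were Epha3, an ephrin receptor (9.74, 8.18 and 7.96 CPM against 42.9, 45.5 and 50.5, log2FC -2.42 ± 0.22, adjusted p = 8.5e-06), and Alcam, an adhesion molecule (21.3, 23.5 and 21.2 CPM against 49.98, 60.9 and 46.9, log2FC -1.26, adjusted p = 0.027). Ncam1 (log2FC 0.23, adjusted p = 0.3) and Cdh2 (log2FC 0.22, adjusted p = 0.062), the adhesion genes best known from condensing mesenchyme, were not called. Cdh6, another cadherin, had 18.5, 18.3 and 17.4 CPM against 39.0, 40.5 and 40.3, just under the fold limit (log2FC -1.14). It was called lower by edgeR with the trend of exon length removed (log2FC -1.26, adjusted p = 0.00012). Of 31 matrix proteases and inhibitors, Adam12 (9.09, 12.2 and 10.96 CPM against 3.21, 4.29 and 3.69, log2FC 1.52, adjusted p = 0.00046) and Adamts6 (19.4, 54.5 and 38.8 CPM against 15.3, 17.7 and 8.07, log2FC 1.45, adjusted p = 0.0088) were called higher and none lower. These 2 were 6.45% of their list, near the 4.84% of all tested genes. Adamts6 was not called without OCP replicate 2 (log2FC 1.07, adjusted p = 0.034) or LMP replicate 3 (log2FC 1.185, adjusted p = 0.041), nor was Alcam without LMP replicate 2 (log2FC -1.14, adjusted p = 0.075).

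The group with the most calls on the LMP side was that of the distal and posterior regulators of the limb bud. Of 25 tested genes 14 were called lower in OCPs and 0 higher, and the median log2 fold change was -1.49, beside 0.02 for all tested genes and 1.36% of all tested genes called lower. Without OCP replicate 1 and LMP replicate 3, 12 were called. Shh, the signal of the posterior organizer, had 0.203, 0.238 and 0.217 CPM in OCPs and 18.99, 13.7 and 15.5 CPM in LMPs, which is 16 against 1141 counts. This was the lowest log2 fold change of the genes that met the rule for naming (log2FC -6.17 ± 0.29, adjusted p = 3.9e-08), a 71.9-fold difference. Msx1, a homeobox gene of undifferentiated distal mesenchyme, had 30.2, 19.6 and 18.9 CPM in OCPs against 289.6, 268 and 295 in S9-Pαhi LMPs (log2FC -3.63 ± 0.18, adjusted p = 4e-08), and Msx2 had 9.25, 10.6 and 13.5 CPM against 94.3, 98.0 and 77.2 (log2FC -3.01, adjusted p = 6.4e-07). No library of one population came near the other for either gene. Msx1os, an antisense RNA, had 17.8, 12.2 and 11.9 CPM against 170.1, 160.1 and 180.4 (log2FC -3.61), but its exons (mm10, chromosome 5, 37820564 to 37822751) lie inside the Msx1 gene (37820491 to 37824585), so that reads of the 2 genes cannot be told apart without strand. Tbx2, a T-box repressor of the limb margins, stood at 20.7, 27.9 and 25.5 CPM against 311, 259.8 and 191 (log2FC -3.36 ± 0.17, adjusted p = 4.3e-08), and its relative Tbx3 at 60.9, 58.5 and 63.8 CPM against 263, 284 and 212 (log2FC -2.05, adjusted p = 3.7e-05). Tfap2c had 2.23, 1.19 and 1.16 CPM against 20.9, 19.1 and 34.0 (log2FC -4.003) and Tfap2a 11.3, 10.98 and 11.1 CPM against 24.0, 25.6 and 34.5 (log2FC -1.33); both encode AP-2 factors, and Tfap2a was not called without LMP replicate 3 (log2FC -1.16, adjusted p = 0.0022). Lhx2, a LIM homeobox gene that responds to the FGFs of the ridge, stood at 65.3, 47.6 and 47.7 CPM against 291, 279 and 427 (log2FC -2.63 ± 0.21, adjusted p = 2.9e-06). The related Lhx9 had 203, 168 and 167 CPM against 333, 361 and 437, under the fold limit (log2FC -1.07, adjusted p = 0.00012).

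The 5' Hox genes, which pattern the distal limb, were lower in OCPs by smaller amounts. Hoxd13 had 27.4, 19.2 and 29.4 CPM in OCPs against 79.6, 62.4 and 72.7 in S9-Pαhi LMPs (log2FC -1.49 ± 0.19, adjusted p = 0.00018), Hoxd12 25.3, 20.9 and 33.2 CPM against 85.1, 68.6 and 73.2 (log2FC -1.51, adjusted p = 0.00016) and Hoxa13 1.05, 1.05 and 1.45 CPM against 4.84, 3.31 and 3.94 (log2FC -1.75, adjusted p = 0.00026). Hoxa11 lay under the fold limit, at 74.9, 59.6 and 68.6 CPM against 132, 131 and 180.3 (log2FC -1.13, adjusted p = 0.00026), with 35% of its exon length under an antisense transcript, and was called without OCP replicate 1 (log2FC -1.204, adjusted p = 0.00036) or LMP replicate 2 (log2FC -1.21, adjusted p = 0.00064). Hoxd11 overlapped between the populations (log2FC -0.35, adjusted p = 0.072). Hand2, a factor upstream of Shh, was under the fold limit, with 184, 184 and 205 CPM against 346, 288 and 299 (log2FC -0.70, adjusted p = 0.0023). Hand1 and Evx1 were also called lower, at low levels (log2FC -1.87 and -2.38), but Hand1 was not called without any 1 of the 6 libraries (adjusted p = 0.11 to 0.19).

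**Figure D2:**
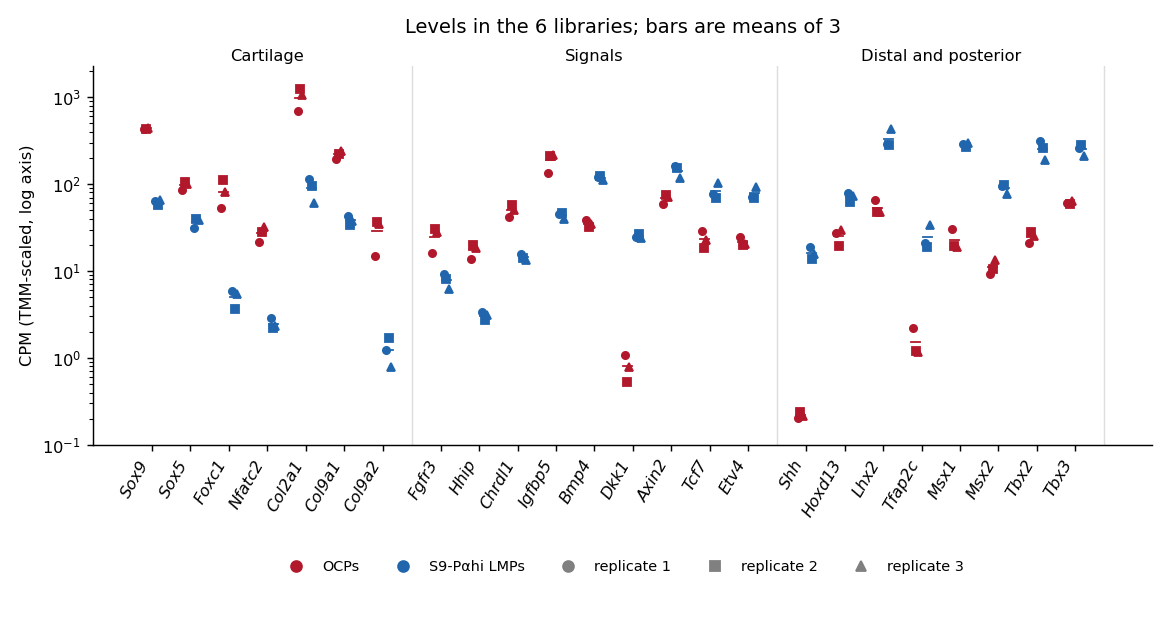
Levels of 24 genes in the 6 libraries, in CPM on a log axis (OCPs red, S9-Pαhi LMPs blue, 1 symbol for each replicate, bars for means of 3). The cartilage group, which holds the gate gene Sox9, and the distal and posterior group show only called genes. In the cartilage group the red symbols lie above the blue ones and in the distal and posterior group below them, without overlap. Over whole lists, populations were separate in either direction in 17 of 32 cartilage matrix genes and 18 of 32 skeletal transcription factors. They were so in 18 of 25 distal and posterior genes and 26.7% of all tested genes. CPM of different genes are not comparable.

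Proximal and anterior regulators were called in both directions. Of 28 tested genes, 3 were called higher and 4 lower (25% called, against 4.84% of all tested genes), and the median was -0.15. Higher in OCPs were Tbx15, a T-box gene of limb mesenchyme (549.6, 739 and 670.4 CPM in OCPs against 255, 276 and 236 in S9-Pαhi LMPs, log2FC 1.35, adjusted p = 0.00012), Emx2, a homeobox gene needed for the shoulder blade (48.8, 51.1 and 50.6 CPM against 18.3, 12.7 and 13.5, log2FC 1.76 ± 0.30, adjusted p = 0.0016), and Osr2, a zinc finger factor (90.7, 108 and 122.7 CPM against 45.4, 32.0 and 38.2, log2FC 1.48, adjusted p = 0.00019). Among the lower ones were Pax9, given above, and Osr1 (31.3, 22.5 and 26.3 CPM against 70.5, 64.2 and 50.3, log2FC -1.21), the relative of Osr2. The 2 Osr genes thus differed in opposite directions, with all libraries separate in each, and Osr1, close to the limit, was not called without OCP replicate 2 (log2FC -1.11, adjusted p = 0.0013) or without LMP replicate 1 or 2 (log2FC -1.10, adjusted p = 0.0028 and log2FC -1.18, adjusted p = 0.0022). Pax1 had 24.9, 18.7 and 31.6 CPM against 112, 108 and 42.4 and was not called (log2FC -1.80, adjusted p = 0.11), and LMP replicate 3 was the lowest of the LMPs. It was called lower with the 6 libraries alone (adjusted p = 0.02, or 0.013 with the replicate number as a block) and by the likelihood ratio test (adjusted p = 0.091). The proximal Meis1 (147, 130.2 and 121 CPM against 83.3, 88.5 and 66.3, log2FC 0.74, adjusted p = 0.25) and Irx3 (234, 236 and 203 CPM against 113, 98.5 and 96.6, log2FC 1.13, adjusted p = 0.22) were separate in the 6 libraries, but neither was called. The 3 chondroblast libraries, which enter the same estimate of the spread, had 79.7, 50.4 and 5.58 CPM of Irx3. Of the general limb genes, Prrx2 was called lower (122.8, 119 and 103 CPM against 309.6, 264 and 306, log2FC -1.35 ± 0.14, adjusted p = 2.8e-05), while its relative Prrx1 was under the fold limit (906, 747 and 899 CPM against 1294, 1486 and 1303, log2FC -0.68). Tbx4 is given above.

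Of 11 tested BMP ligands 4 were called lower and 1 higher (median -0.53, 45.5% called, against 4.84% of all tested genes). Bmp4 had 38.5, 32.1 and 34.4 CPM in OCPs against 119, 122.6 and 110.0 in S9-Pαhi LMPs (log2FC -1.74 ± 0.15, adjusted p = 5e-06), and Gdf6 had 4.14, 1.997 and 2.86 CPM against 10.9, 14.97 and 15.5 (log2FC -2.19, adjusted p = 0.00043). Bmp5 was lower too (4.10, 4.56 and 5.35 CPM against 10.53, 12.03 and 11.01, log2FC -1.26), with 46.7% of its exon length under an antisense transcript, and it was not called without OCP replicate 1 (log2FC -1.17, adjusted p = 0.00093). Bmp2 was called lower but its libraries overlapped, with 1.87, 3.90 and 2.35 CPM against 10.53, 13.1 and 3.79 (log2FC -1.78, adjusted p = 0.008). Bmp3, a BMP that antagonizes the others, was called higher at 2.88, 4.76 and 4.01 CPM against 1.10, 0.827 and 0.349 (log2FC 2.32, adjusted p = 0.0068). Bmp7, at 80.4, 80.5 and 82.6 CPM against 113, 114 and 124, lay under the fold limit (log2FC -0.53, adjusted p = 0.0012).

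Of 18 extracellular antagonists and modulators, 4 were called higher and 1 lower (27.8% called, against 4.84% of all tested genes). Chrdl1, a chordin-like antagonist, had 41.5, 57.0 and 50.9 CPM in OCPs against 15.5, 13.95 and 13.6 in S9-Pαhi LMPs (log2FC 1.80 ± 0.16, adjusted p = 8.5e-06). Bmper had 2.92, 7.42 and 8.17 CPM against 0.854, 0.564 and 0.498 (log2FC 3.25, adjusted p = 0.0001), Smoc2 9.13, 20.1 and 23.4 CPM against 6.51, 7.33 and 2.64 (log2FC 1.65, adjusted p = 0.012) and Fst, which encodes the activin and BMP trap follistatin, 1.01, 2.23 and 2.06 CPM against 0.366, 0.263 and 0.199 (log2FC 2.64, adjusted p = 0.00067). In these 3 genes OCP replicate 1 was the lowest OCP library. Smoc1 was just under the limit (152, 109.8 and 136 CPM against 60.6, 52.7 and 62.7, log2FC 1.175, adjusted p = 9.5e-05), and over it without OCP replicate 2 (log2FC 1.28) or LMP replicate 3 (log2FC 1.23). Grem1, the antagonist that links BMP, SHH and FGF signalling in the limb bud, overlapped, with 24.9, 11.8 and 15.9 CPM against 21.7, 21.2 and 30.7 (log2FC -0.48, adjusted p = 0.14), and so did Nog (log2FC 0.59, adjusted p = 0.23). Of 13 receptors and Smads only Smad9 was called (7.69%, against 4.84% of all tested genes), lower, at 0.811, 0.333 and 1.19 CPM against 5.53, 4.59 and 3.64 (log2FC -2.51, adjusted p = 0.0011). The receptor Bmpr1b, which acts in early cartilage, had 30.2, 37.5 and 36.1 CPM against 17.2, 20.9 and 18.3 (log2FC 0.88, adjusted p = 0.001), under the fold limit.

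Of 13 genes known to respond to BMPs, 4 were called lower and 0 higher (median -0.46, 30.8% called, against 4.84% of all tested genes). The 4 were Msx1, Msx2, Dlx5 and Dlx6, of which the first 2 also belong to the distal list. The Id genes, which encode inhibitors of helix-loop-helix factors, had smaller differences in the same direction, none called: 75.8, 85.4 and 96.8 CPM against 136, 137 and 113 for Id1 (log2FC -0.58, adjusted p = 0.0048), 102, 127 and 122.6 CPM against 161, 172 and 149 for Id2 (log2FC -0.46, adjusted p = 0.019) and 92.9, 102 and 108 CPM against 147, 135 and 130.5 for Id3 (log2FC -0.44, adjusted p = 0.0048). The feedback gene Smad6 overlapped (log2FC -0.21, adjusted p = 0.18).

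Of 13 tested genes that respond to canonical Wnt signalling 12 had negative log2 fold changes, beside 7169 of all 15125 tested genes. Of the 13, 4 were called lower (30.8%, beside 1.36% of all tested genes) and 0 higher, and the median was -1.06. Dkk1, a secreted Wnt inhibitor, had 1.10, 0.523 and 0.796 CPM in OCPs and 24.8, 26.8 and 23.8 CPM in LMPs, a 30.7-fold difference (log2FC -4.94 ± 0.25, adjusted p = 4.3e-08). Notum, an enzyme that inactivates Wnts, had 3.20, 3.47 and 2.50 CPM against 22.2, 12.4 and 13.8 (log2FC -2.41, adjusted p = 2.7e-05), with 29.4% of its exon length under an antisense transcript. Tcf7, a nuclear partner of β-catenin, had 28.7, 18.5 and 22.6 CPM against 76.6, 69.7 and 103 (log2FC -1.84, adjusted p = 5.7e-06), and Apcdd1, a membrane inhibitor, 31.1, 31.8 and 37.4 CPM against 94.3, 87.2 and 86.7 (log2FC -1.42, adjusted p = 0.002). All 4 were separate in the 6 libraries. Axin2, the most general reporter of the pathway, had 58.8, 74.8 and 71.1 CPM against 160.4, 152 and 116 (log2FC -1.07 ± 0.21, adjusted p = 0.0039), Nkd1 51.8, 47.1 and 54.2 CPM against 123.1, 97.4 and 98.8 (log2FC -1.06, adjusted p = 1.2e-05) and Lef1 58.9, 42.3 and 46.8 CPM against 109, 100.2 and 116 (log2FC -1.13, adjusted p = 0.0001). These 3 were separate as well but under the fold limit, and Lef1 was called without OCP replicate 1 (log2FC -1.28, adjusted p = 3.1e-05).

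Among 32 Wnt ligands, receptors and nuclear factors, 4 were called higher and 2 lower (median 0.11, 18.75% called, against 4.84% of all tested genes). The receptor Fzd10 was lower, with 36.5, 16.8 and 21.5 CPM in OCPs against 103, 93.6 and 126 in S9-Pαhi LMPs (log2FC -2.10 ± 0.22, adjusted p = 2.7e-05), and the other lower gene was Tcf7. Higher were the receptor Fzd8 (30.0, 42.4 and 46.1 CPM against 15.05, 15.01 and 9.37, log2FC 1.58, adjusted p = 0.00023), the WNT5A receptor Ror1 (77.8, 88.8 and 92.6 CPM against 38.9, 40.6 and 29.6, log2FC 1.24, adjusted p = 0.028) and the low Wnt9a and Wnt16 (log2FC 1.26 and 1.45). Without OCP replicate 3, and likewise without LMP replicate 3, only Fzd8 of the 4 was called. Ror1 then had a log2FC of 1.16 and 1.12, Wnt9a of 1.13 and 1.07 and Wnt16 of 1.27 and 1.22 (adjusted p = 0.12 and 0.13), and Wnt16 was not called without LMP replicate 2 either (log2FC 1.23, adjusted p = 0.11). Tcf7l2 (109, 115 and 108 CPM against 57.1, 74.0 and 58.4, log2FC 0.81, adjusted p = 0.00015) differed from Tcf7 and Lef1 in sign and was not called. Of 13 secreted modulators, Dkk1 and Rspo4, an R-spondin that raises Wnt receptor levels (43.2, 21.2 and 27.8 CPM against 94.9, 91.2 and 128, log2FC -1.77, adjusted p = 0.0032), were called lower and none higher. Frzb, a Wnt antagonist of later cartilage, had 82.8, 69.3 and 113 CPM against 142, 142 and 171 (log2FC -0.78, adjusted p = 0.013), and Rspo2 had 44.7, 31.5 and 36.2 CPM against 20.8, 19.7 and 18.5 (log2FC 0.93, adjusted p = 0.024). Of this list of modulators 15.4% was called, against 4.84% of all tested genes. Its median was 0.33, opposite in sign to its called genes, but this depended on single libraries. The median was 0.15 without OCP replicate 2, 0.07 with the 6 libraries alone and -0.12 without LMP replicate 2.

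Of 15 FGF ligands and receptors 5 were called higher and 1 lower (median 0.48, 40% called, against 4.84% of all tested genes). Fgfr3, the FGF receptor of cartilage, had 15.98, 30.1 and 28.3 CPM in OCPs against 9.15, 8.16 and 6.28 in S9-Pαhi LMPs (log2FC 1.65 ± 0.22, adjusted p = 0.00023), and Fgfr4 2.76, 3.80 and 2.97 CPM against 1.14, 1.02 and 0.697 (log2FC 1.72, adjusted p = 0.00054). The ligand Fgf9 had 4.99, 7.66 and 8.28 CPM against 0.813, 1.05 and 0.448 (log2FC 3.14, adjusted p = 5.3e-06), and Fgf7 and Fgf12 were called at low levels (log2FC 1.61 and 2.20). The gene called lower was the ligand Fgf2 (0.284, 0.0951 and 0.398 CPM against 0.569, 0.940 and 0.448, log2FC -1.29, adjusted p = 0.089), which was not called without OCP replicate 2 (log2FC -0.95, adjusted p = 0.25) or any LMP library (adjusted p = 0.10 to 0.26), nor was Fgf7 without OCP replicate 2 (log2FC 1.14, adjusted p = 0.075). Fgf10, the mesenchymal signal to the ridge, overlapped (44.7, 36.9 and 40.2 CPM against 44.7, 48.2 and 60.4, log2FC -0.33, adjusted p = 0.12). The genes that report FGF signalling were 2 lower and 0 higher of 18 (11.1% called, against 4.84% of all tested genes), with a median of -0.13. These were the ETS factor Etv4 (24.6, 19.9 and 20.7 CPM in OCPs against 71.5, 69.8 and 92.5 in S9-Pαhi LMPs, log2FC -1.84 ± 0.16, adjusted p = 8.5e-06) and the feedback inhibitor Spry4 (15.6, 14.6 and 14.8 CPM against 36.5, 36.1 and 62.1, log2FC -1.58, adjusted p = 9.6e-05). Etv5 (log2FC -0.85, adjusted p = 0.00094) and Il17rd (log2FC -0.68, adjusted p = 0.00039) were negative and under the limit, Spry2 was positive (log2FC 0.57, adjusted p = 0.018), and Dusp6, a direct ERK target, overlapped (212, 229 and 206 CPM against 218, 187 and 327, log2FC -0.18, adjusted p = 0.48).

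In the hedgehog list of 21 genes, Shh was called lower and Hhip, a membrane protein that binds hedgehog ligands, higher, at 13.8, 19.9 and 18.3 CPM in OCPs against 3.38, 2.75 and 3.09 in S9-Pαhi LMPs (log2FC 2.49 ± 0.26, adjusted p = 2.8e-05). Of this list 9.52% was called, against 4.84% of all tested genes. The pathway targets Gli1 (50.8, 88.7 and 60.9 CPM against 72.8, 54.4 and 54.5, log2FC 0.14, adjusted p = 0.68) and Ptch1 (84.3, 82.0 and 103 CPM against 104, 97.9 and 88.9, log2FC -0.11, adjusted p = 0.54) overlapped between the populations. The coreceptor Boc had 154, 216 and 185 CPM against 100.4, 112 and 93.4 (log2FC 0.86, adjusted p = 0.00068), under the limit. Of 23 Notch genes 3 were called higher and none lower (median 0.40, 13.0% called, against 4.84% of all tested genes): the receptor Notch1 (70.9, 103 and 91.3 CPM against 35.5, 43.9 and 25.01, log2FC 1.34, adjusted p = 0.0009), the ligand Dll3 (2.47, 2.66 and 3.87 CPM against 0.813, 1.05 and 0.399, log2FC 1.96, adjusted p = 0.094) and the target Heyl, at most 0.940 CPM. Notch1 was not called without LMP replicate 3 (log2FC 1.16, adjusted p = 0.0051), Heyl not without OCP replicate 3 (log2FC 1.23, adjusted p = 0.12) or LMP replicate 3 (log2FC 0.89, adjusted p = 0.14), and Dll3 not without any library other than OCP replicate 1 (adjusted p = 0.12 to 0.27). Of 17 genes of the retinoic acid pathway 3 were called higher and 1 lower (23.5% called, against 4.84% of all tested genes). The reductase Dhrs3 had 21.4, 24.8 and 22.0 CPM against 8.21, 8.57 and 8.17 (log2FC 1.45, adjusted p = 4.7e-05), the enzyme Aldh1a2, which makes retinoic acid, 4.58, 8.51 and 9.15 CPM against 3.05, 2.03 and 3.54 (log2FC 1.38, adjusted p = 0.035) and the receptor Rxrg 1.501, 1.81 and 1.77 CPM against 0.325, 0.226 and 0.399 (log2FC 2.42). Aldh1a2 was not called without OCP replicate 3 (log2FC 1.16, adjusted p = 0.12) or LMP replicate 2 (log2FC 1.17, adjusted p = 0.11). Crabp1, which encodes a binding protein for retinoic acid, was lower, at 204, 62.4 and 106 CPM against 341, 288 and 481 (log2FC -1.57 ± 0.34, adjusted p = 0.0078). Of 17 TGFβ genes none was called by edgeR, and 4 passed the adjusted p on the higher side without the fold limit (beside 11.8% of all tested genes). Tgfb3 was one of these (log2FC 0.47, adjusted p = 0.0026).

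**Figure D3:**
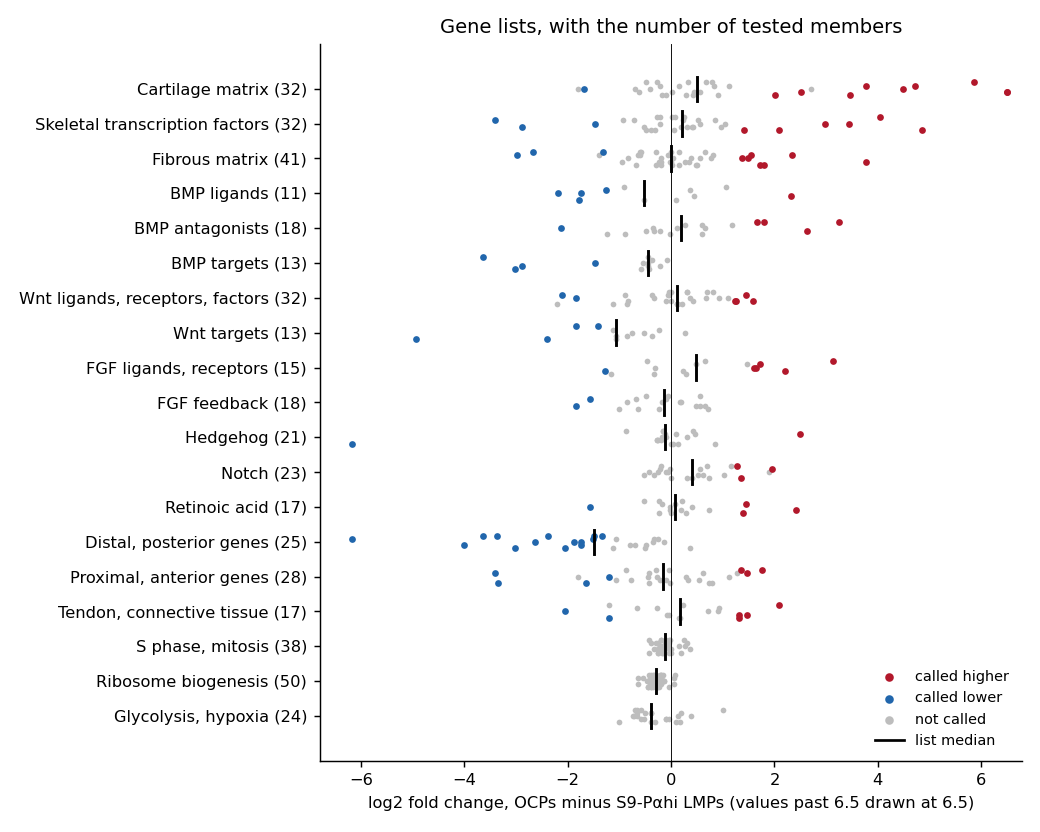
Log2 fold changes (x axis) of the tested members of 19 gene lists, 1 point for each gene, with the list median as a black bar and the number of tested members in brackets. Wnt targets and distal and posterior genes have the lowest medians (-1.06 and -1.49), and the called cartilage matrix genes lie on the right apart from Lox; some genes belong to several lists.

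Factors of tendon and of the joint were found on both sides. Scx, the main tendon factor, had 99.4, 117 and 118 CPM in OCPs against 52.5, 49.2 and 33.4 in S9-Pαhi LMPs (log2FC 1.31 ± 0.15, adjusted p = 5.5e-05), and Mkx, a later tendon homeobox gene, 19.1, 27.6 and 27.4 CPM against 11.96, 9.85 and 7.92 (log2FC 1.31, adjusted p = 0.00012). With Osr2 and the low Kera they were the 4 genes called higher of 17 in the tendon and connective tissue list, and Osr1 and Tbx3 were the 2 called lower. Of this list 35.3% was called, against 4.84% of all tested genes. Without LMP replicate 3 neither Scx (log2FC 1.13, adjusted p = 0.0001) nor Mkx (log2FC 1.178, adjusted p = 0.00083) was called, nor was Mkx without OCP replicate 3 (log2FC 1.196, adjusted p = 0.0012). Of 13 tested genes of the joint list, 3 were called higher (Osr2, Wnt9a and Jun) and 2 lower (Osr1 and Gdf6). This was 38.5% of the list, against 4.84% of all tested genes. Wnt9a, Jun and Osr1 each lost the call when at least 1 library was left out. The joint gene Gdf5 was not called (4.22, 3.28 and 4.27 CPM against 3.09, 2.86 and 2.69, log2FC 0.45, adjusted p = 0.21). Of 18 growth regulators, the IGF-binding proteins Igfbp5 (132, 212 and 218 CPM against 45.5, 46.3 and 39.8, log2FC 2.09 ± 0.46, adjusted p = 0.009) and Igfbp3 (36.1, 46.0 and 43.7 CPM against 11.55, 11.4 and 8.47, log2FC 1.995, adjusted p = 0.0004) were called higher (11.1% of the list, against 4.84% of all tested genes). Mycn, the Myc gene of growing limb mesenchyme, had 86.6, 60.6 and 66.1 CPM against 142, 127 and 203 (log2FC -1.14, adjusted p = 0.00035), just under the limit on the lower side, and was called without OCP replicate 1 (log2FC -1.31, adjusted p = 0.00012) or without LMP replicate 1 or 2 (log2FC -1.21, adjusted p = 0.0011 and log2FC -1.28, adjusted p = 0.00035).

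Neither the list of G1 regulators nor that of S phase and mitosis held a gene called by edgeR or by DESeq2. Of 20 G1 regulators 4 passed the adjusted p on the higher and 3 on the lower side without the fold limit. Among all tested genes the shares were 11.8% and 8.35%. Cdkn1c, which encodes the cell cycle inhibitor p57, had 1030.5, 1006 and 1031 CPM in OCPs against 576, 509 and 406 in S9-Pαhi LMPs (log2FC 1.04 ± 0.10, adjusted p = 1.6e-05), the largest of these, with 30.7% of its exon length under an antisense transcript. The 38 genes of S phase and mitosis had a median of -0.13 with 1 and 8 past the adjusted p, those of ribosome biogenesis (50 genes) a median of -0.29 with 0 and 25, and those of glycolysis and hypoxia (24 genes) a median of -0.39 with 1 and 12. Ldha, a lactate dehydrogenase gene, had 588, 286 and 419 CPM against 831, 749 and 1021 (log2FC -1.01, adjusted p = 0.005), and OCP replicate 2 was lowest. Ldha was called without OCP replicate 1 (log2FC -1.30, adjusted p = 0.00024). The median exon length of these lists was 3393.5, 2662.5 and 2585.5 bases, beside 2910 for all tested genes. The trend of exon length was also removed, a step that reversed it over all tested genes, as given below. With that step the medians were -0.09, -0.27 and -0.34, beside 0.05 for all tested genes. Without OCP replicate 2 they were -0.10, -0.28 and -0.29.

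Outside the lists, the genes with the largest changes among called genes with a mean of at least 1 log2 CPM and separate populations (187 higher, 82 lower) were of several kinds. Higher in OCPs were Sema3d, a secreted guidance factor (16.8, 37.0 and 34.8 CPM in OCPs against 1.55, 2.93 and 1.64 in S9-Pαhi LMPs, log2FC 3.83, adjusted p = 1e-05), Enpp2, the enzyme that makes lysophosphatidic acid (38.9, 62.6 and 58.8 CPM against 3.86, 4.06 and 4.73, log2FC 3.67 ± 0.19, adjusted p = 4.3e-08), and Sorbs2, an adapter of the actin cytoskeleton (32.2, 41.8 and 43.8 CPM against 3.46, 2.67 and 2.99, log2FC 3.69, adjusted p = 1.2e-07). Shisa7 had 7.79, 20.9 and 9.15 CPM against 0.325, 0.903 and 0.448, the motor protein gene Myo5b 6.94, 10.7 and 10.2 CPM against 1.06, 0.677 and 0.797, and Dipk1c 9.33, 8.94 and 12.4 CPM against 1.14, 0.978 and 0.897 (log2FC 4.45, 3.45 and 3.34). On the other side were Prdm1, a transcriptional repressor (0.933, 0.856 and 1.48 CPM against 21.1, 18.9 and 20.03, log2FC -4.17 ± 0.23, adjusted p = 8.1e-08), the actin-binding Synpo2 (0.690, 0.428 and 0.977 CPM against 6.26, 6.36 and 5.13, log2FC -3.05) and Zfp804a (0.608, 1.85 and 1.09 CPM against 7.48, 15.4 and 3.24, log2FC -2.91). Of the called genes with the most counts not yet given, Synpo had 400.2, 425 and 452 CPM against 199, 198 and 156 (log2FC 1.21) and the guidance receptor Robo2 235, 331 and 328 CPM against 129, 151 and 93.8 (log2FC 1.25), both near the limit, and the netrin receptor Unc5b had 89.8, 71.0 and 89.1 CPM against 209, 188 and 199 (log2FC -1.25, adjusted p = 1.2e-05). Without OCP replicate 2, Synpo (log2FC 1.197, adjusted p = 0.00033), Robo2 (log2FC 1.16, adjusted p = 0.0016) and Unc5b (log2FC -1.16, adjusted p = 2e-05) were not called. Synpo and Robo2 were also not called without OCP replicate 3 (log2FC 1.13 and 1.15) or LMP replicate 3 (1.10 and 1.09). Nearest the fold limit on the higher side were Bmf, Khdrbs2, Igsf11 and Kcnf1 inside it (log2FC 1.203, 1.206, 1.207 and 1.208) and Pde8b, Zfp663, Tmem163 and Ildr2 outside (1.198, 1.196, 1.195 and 1.193). On the lower side Osr1, Cnnm1, Gcnt4 and Asns were just inside (-1.207, -1.2196, -1.225 and -1.227) and Eya2, Nfam1 and Tmem30b just outside (-1.1999, -1.181 and -1.178). Each of these 8 calls was lost when at least 1 library was left out, with log2FC of 0.89 to 1.197 on the higher side and of -0.96 to -1.19 on the lower side.

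To look at the sequence before the start sites, windows of 250 bases before to 50 bases after the start were taken from RefSeq (GRCm38.p6) for 11743 of the tested genes. Both strands were searched for the SOX motif AACAAT and the TCF/LEF motif ATCAAAG, whose matches can overlap by the letters AT. The SOX motif was found in 7.31% of the 520 windows of genes called higher, 7.43% of the 175 windows of genes called lower and 5.89% of the 14909 windows of all tested genes. For the TCF/LEF motif the shares were 1.92%, 2.29% and 2.58%. A match is a description of these letters only. Windows on 1 chromosome were left out of the count of single genes that follows. Of 63 genes named by the rule or called in the skeletal, cartilage, Wnt, BMP target and distal lists, 39 had a window outside that chromosome. Of their 49 windows, 3 held a match. These are shown with that of Dkk1, the gene with the lowest log2 fold change among those with a window, up to the base before the start site, with matches in capitals. Col9a2 is on the forward strand (chr4:121039316-121039565), with the TCF/LEF motif on the opposite strand. Fzd10 (chr5:128600856-128601105, forward) holds the SOX motif on the opposite strand and Evx1 (chr6:52313248-52313497, forward) on its own. Dkk1 (chr19:30549497-30549746, reverse strand) holds neither.
Col9a2: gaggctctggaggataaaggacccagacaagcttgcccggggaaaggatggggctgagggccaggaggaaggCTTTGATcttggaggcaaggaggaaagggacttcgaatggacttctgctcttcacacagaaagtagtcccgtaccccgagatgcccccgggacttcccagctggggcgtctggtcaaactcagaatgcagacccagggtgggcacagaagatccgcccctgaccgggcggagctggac
Fzd10: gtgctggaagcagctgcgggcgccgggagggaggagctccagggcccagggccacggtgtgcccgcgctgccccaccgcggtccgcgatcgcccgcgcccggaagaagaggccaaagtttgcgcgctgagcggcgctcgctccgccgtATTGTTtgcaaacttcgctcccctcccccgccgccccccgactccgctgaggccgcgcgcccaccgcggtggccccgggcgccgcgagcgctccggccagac
Evx1: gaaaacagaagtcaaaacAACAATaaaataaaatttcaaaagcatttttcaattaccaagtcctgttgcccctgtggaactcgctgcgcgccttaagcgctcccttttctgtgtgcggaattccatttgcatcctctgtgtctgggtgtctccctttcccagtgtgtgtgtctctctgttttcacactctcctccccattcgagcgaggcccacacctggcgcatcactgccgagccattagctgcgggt
Dkk1: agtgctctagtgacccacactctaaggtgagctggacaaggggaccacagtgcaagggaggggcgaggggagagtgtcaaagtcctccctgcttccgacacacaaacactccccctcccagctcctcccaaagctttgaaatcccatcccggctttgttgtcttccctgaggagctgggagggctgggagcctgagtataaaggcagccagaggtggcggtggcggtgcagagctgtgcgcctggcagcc
Of the 4 genes, the 1 with a TCF/LEF match was higher in OCPs, and both genes with a SOX match were lower.

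Markers of other cell types were low in both populations. The sums over the ectoderm, muscle and glia markers were higher in each OCP library than in each LMP library, and those of endothelium and red blood cells overlapped. Of 13 endothelial markers 11 were tested, summing to 24.2 to 29.5 CPM in OCPs and 26.2 to 34.7 CPM in LMPs, and Tek was called lower (0.649, 0.999 and 0.723 CPM against 2.36, 5.49 and 3.54). Of 13 leukocyte markers 2 were tested, and Itgam, Spi1 and Tyrobp had no count in the 6 libraries. Red blood cell markers summed to 13.6 to 72.6 and 9.85 to 52.5 CPM and none was called. Of 15 ectoderm markers 9 were tested, with sums of 14.1 to 16.8 CPM in OCPs and 7.77 to 10.9 CPM in LMPs, and Krt18 was called higher (6.41, 8.13 and 7.16 CPM against 3.29, 3.87 and 2.09), but not without OCP replicate 2 (log2FC 1.11, adjusted p = 0.026), OCP replicate 3 (log2FC 1.19, adjusted p = 0.032) or LMP replicate 3 (log2FC 1.01, adjusted p = 0.046). The 10 muscle markers summed to 9.01 to 10.2 and 6.38 to 8.84 CPM, with Mybpc1 called lower, at most 1.02 CPM, but not without OCP replicate 3 or LMP replicate 1 (adjusted p = 0.11 and 0.13). Of 11 markers of glia and nerve 9 were tested, summing to 16.4 to 28.5 CPM in OCPs and 10.7 to 14.2 CPM in LMPs. Of the 9, 4 were called higher and 0 lower (44.4%, against 4.84% of all tested genes), with a median log2FC of 1.19. Sox10, the factor of neural crest and glia, had 1.87, 3.99 and 3.07 CPM in OCPs and 0, 0.113 and 0.0498 CPM in LMPs, and its target Erbb3 had 2.27, 4.28 and 5.71 CPM against 0.285, 0.338 and 0.349 (log2FC 3.65, adjusted p = 7.2e-05). Foxd3 was called as well, at most 0.571 CPM, but not without any 1 LMP library (adjusted p = 0.15 to 0.24). The part of glia in the other results was not tested. The genes on the Y chromosome, of which 4 were tested, were present in all 6 libraries, summing to 106 to 163 CPM in OCPs and 107 to 125 in LMPs.

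Exon length had different effects in single libraries. The 8028 genes whose mean reached 20 CPM were put in 5 bins of equal size by exon length, and the log2 ratio of each library to the mean of the 6 was taken. Its median rose from the shortest to the longest bin by 0.40 in OCP replicate 2, 0.10 in OCP replicate 3 and 0.10 in LMP replicate 2, and it fell by 0.19 in OCP replicate 1, by 0.11 in LMP replicate 1 and by 0.30 in LMP replicate 3. Both directions thus occurred in both populations, and against the mean of the 6 OCP replicate 2 and LMP replicate 3 were the extremes. Against the other libraries of the same population the change was -0.44, 0.43 and -0.0001 in OCP replicates 1, 2 and 3. It was -0.02, 0.30 and -0.28 in LMP replicates 1, 2 and 3. OCP replicate 1 thus differed from the other OCPs as much as OCP replicate 2 did, in the opposite direction. Spearman's rho over genes, as a description, was -0.40, 0.42 and 0.27 in the OCPs and -0.28, 0.29 and -0.47 in the LMPs.

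In the comparison itself the median log2 fold change went from -0.05 in the shortest of 5 bins of the tested genes to 0.09 in the longest. Genes called higher made up 1.92%, 3.14%, 3.54%, 3.41% and 5.39% of the bins in order of length, and genes called lower 1.12%, 1.52%, 1.52%, 1.49% and 1.16%. The median exon length was 3478.5 bases for genes called higher, 2816.5 for genes called lower and 2910 for all tested genes. The fitted trend of each library was then removed. After this step the median log2 fold change fell with length. It was 0.08, 0.08, 0.05 and 0.03 in the 4 shorter bins and lowest in the longest. The step thus reversed the trend over all tested genes and did not level it. With the step, 759 genes were called, 553 higher and 206 lower. Of these, 499 (94.9% of the 526, 90.2% of the 553) and 199 (96.6% of the 206) were also called without that step, and no called gene changed sign. Of the genes named here, Ror1 (log2FC 1.16), Robo2 (1.14), Synpo (1.12), Bmf and Kcnf1 (both 1.176), Osr1 (-1.15) and Asns (-1.16) then fell under the fold limit, and Fgf2 and Neat1 no longer passed the adjusted p (0.13 and 0.11). In turn, Cdh6 (log2FC -1.26), Tmem163 (1.24) and Zfp663 (1.21) were called with the step and not without it. In the longest bin the genes called higher numbered 163 before and 141 after the step, and in the shortest 58 and 74. OCP replicate 2 was also highest in RNAs that stay in the nucleus. Meg3 had 119.5, 416 and 214 CPM in OCPs against 95.2, 95.9 and 53.0 in S9-Pαhi LMPs (log2FC 1.61, adjusted p = 0.0094), and Malat1 103, 348 and 149.7 CPM against 74.6, 143 and 55.1 (log2FC 1.13, adjusted p = 0.075), which was called without OCP replicate 1 or 3 or LMP replicate 2 (log2FC 1.27 to 1.62). Of 9 such RNAs 4 (Neat1, Meg3, Rian and Miat) were called higher with all libraries (44.4%, against 4.84% of all tested genes) and, by edgeR, 0 without OCP replicate 2, where Meg3 had a log2FC of 1.02 (adjusted p = 0.034), and 1 without LMP replicate 3. The stress gene Jun, called higher, followed the same library (254, 807 and 430.0 CPM against 300.2, 184 and 136) and overlapped between the populations (log2FC 0.71, adjusted p = 0.2 without that library). Without LMP replicate 2 or 3 it was not called either (log2FC 1.19 and 1.04, adjusted p = 0.10 and 0.16). Without OCP replicate 2, 582 genes were called, 395 higher and 187 lower, of which 379 and 166 were also called with all libraries (72.1% of the 526 and 96.0% of the 395, 80.6% of the 206 and 88.8% of the 187). The cartilage matrix list then had 8 genes called higher and 1 lower, and the distal and posterior list 13 lower.

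**Figure D4:**
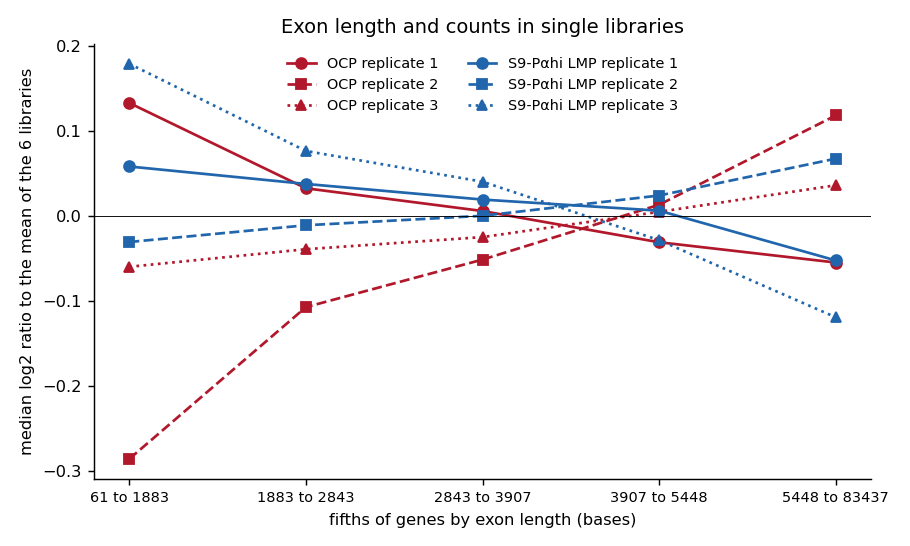
Median log2 ratio of each library to the mean of the 6 libraries (y axis) in 5 bins of 8028 genes by exon length in bases (x axis), 1 line for each library (OCPs red, S9-Pαhi LMPs blue). The line of OCP replicate 2 rises by 0.40 from the shortest to the longest genes and that of LMP replicate 3 falls by 0.30.

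The called genes were then looked up in 6 other libraries of the series: chondroblasts, which are S9+Pαhi cells of E11.5 labelled as Col2a1-positive, and S9-JAG1+ cells, EGFP-negative cells of E10.5 with surface JAG1. This comparison shares no library with that of OCPs and S9-Pαhi LMPs. Its groups differ in stage and in selection by surface JAG1 as well as in SOX9, which cannot be told apart. The paper places the JAG1-positive cells in the posterior-distal mesenchyme. Both comparisons are fitted with 1 estimate of the spread. Pitx1 was at 23.6 CPM in S9-JAG1+ replicate 1 and at most 3.77 CPM in the other 5 of these libraries. Hoxc10 was at 3.90, 0.419 and 4.32 CPM in S9-JAG1+ replicates 1, 2 and 3 and at most 0.0342 CPM in chondroblasts. It was thus also present in S9-JAG1+ replicate 3, which stays in the fit without replicate 1. The comparison called 2927 genes (19.4%), 2297 higher in chondroblasts (15.2%) and 630 lower (4.17%). Of the 526 genes called higher in OCPs, 513 (97.5%) had a positive log2 fold change here too, and 437 (83.1%, and 19.02% of the 2297) were called higher in chondroblasts against 3 called lower. Without S9-JAG1+ replicate 1 the numbers were 431 and 3. Their median log2 fold change was 2.84 between chondroblasts and S9-JAG1+ cells, beside 0.05 for all tested genes. Col2a1 (log2FC of chondroblasts minus S9-JAG1+ cells 5.89), Foxc1 (5.55) and Emx2 (5.49) were among the 437. Enpp2, 12.7-fold higher in OCPs than in LMPs, was not (0.28, adjusted p = 0.15).

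The 206 genes called lower in OCPs divided. In this comparison 118 (57.3%) had a negative log2 fold change and 88 a positive one, 84 (40.8%, and 13.3% of the 630) were called lower in chondroblasts and 44 (21.4%) higher, and the median was -0.59. Without S9-JAG1+ replicate 1, 79 were called lower and 47 higher. Shh (log2FC of chondroblasts minus S9-JAG1+ cells -8.27), Tfap2c (-6.34), Msx1 (-3.27), Dkk1 (-2.71), Tcf7 (-2.83) and Etv4 (-2.34) were called lower in both. Among those called higher in chondroblasts were Osr1 (5.06), Pax9 (5.64), Lox (3.88), Alcam (2.61), Dlx5 (2.21), Gdf6 (1.84) and Epha3 (1.73). Msx2 was not called (-0.20, adjusted p = 0.37). Over all 5 populations the mean CPM was highest in chondroblasts for 294 of the genes called higher in OCPs (55.9%) and in OCPs for 150 (28.5%). Of the genes called lower, 77 (37.4%) were highest in the S9-Pαhi LMPs and 69 (33.5%) in the S9-JAG1+ cells. Among all tested genes the shares were 32.5% for chondroblasts, 13.0% for OCPs, 8.53% for S9-Pαhi LMPs and 21.5% for S9-JAG1+ cells. Since the genes were called from OCPs and LMPs, these shares are a description.

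**Figure D5:**
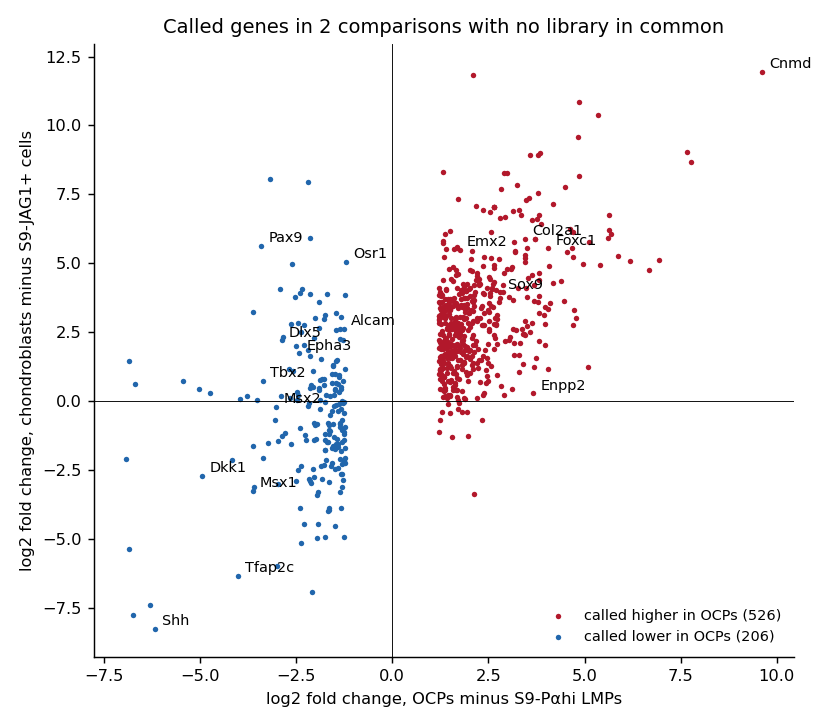
Log2 fold change of OCPs minus S9-Pαhi LMPs (x axis) and of chondroblasts minus S9-JAG1+ cells (y axis) for the 732 called genes. Of the 526 genes called higher in OCPs 513 lie above 0 on the y axis, and the 206 called lower spread to both sides.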

How the data were processed

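RNA-seq of FACS-sorted mouse forelimb bud cells gave 14 libraries. The authors aligned single-end reads of poly(A)+ RNA to mm10 with STAR, keeping 1 location per read, and counted reads starting in RefSeq exons with qCount. The deposited values are raw counts per gene, and strand use is not stated. The table also gives an exon length for each gene. Identifiers were matched to symbols for 24374 genes, and the 80 without a match held 0.358% of the counts.

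Genes were kept by filterByExpr of edgeR (version 4.0.16), scaled by TMM and fitted with 1 mean for each of the 5 populations and a quasi-likelihood test, with Benjamini-Hochberg adjustment. Limits were an adjusted p of 0.1 and a log2 fold change of 1.2. These numbers are those of the study, whose methods give the first as P and do not say whether it was adjusted. Libraries of a population are separate pools of embryos, so p values measure the spread between pools. The test was checked on simulated counts. Intervals and the limit of 3 counts cover counting error only. The length trend was fitted by loess (span 0.5) in each library on 8126 genes and subtracted for all tested genes.

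Named genes are called or defining members of 40 gene lists, the gate genes, the 12 largest changes in each direction among called genes with a mean of at least 1 log2 CPM and no overlap, the 6 most abundant of these, and the 4 nearest the fold limit. Some genes are not reported here. Members and lists were chosen with earlier results of these data known. Alternatives were 22 planned, including DESeq2 (version 1.42.0). Fits without OCP replicate 1 and LMP replicate 3, and without S9-JAG1+ replicate 1 in the comparison with chondroblasts, were added after seeing the data.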

Additional observations from a re-analysis of the deposited data

How the results depend on the processing

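The number of called genes stayed within 1.5 times of 732 under other scalings, tests (728 to 839), sample sets and a limit of 0.05 on the adjusted p (612). With at least 1 CPM in 3 libraries, 12799 genes were tested and 445 called (310 higher, 135 lower). Without a fold limit 3042 passed (1779 higher, 1263 lower), and 9966 between chondroblasts and S9-JAG1+ cells. Leaving out 1 library gave 556 (without LMP replicate 3) to 1015 (without OCP replicate 1) calls, 382 to 773 higher and 174 to 242 lower. With the 6 libraries alone 533 were called. The 6 libraries share replicate numbers, but the likeness of libraries did not follow these numbers throughout. Deviations of same-numbered libraries correlated at -0.18, 0.29 and -0.12. Those of OCP replicate 1 and LMP replicate 3 correlated at 0.41, and those of OCP replicate 3 and LMP replicate 1 at 0.16. Whether an OCP and an LMP library came from 1 pool is not stated. No block other than the replicate number was fitted. With the replicate number as a block 734 genes were called (527 higher, 207 lower). The length trend of LMP replicate 2 was 0.30 against the other LMP libraries, beside 0.10 against all 6; the cause was not tested. No called gene changed sign under any alternative. Of the 138 called genes that the text names or the naming rule chose, 95 were called in every refit that tested them; other limits on p or fold were not applied gene by gene. Genes near 3 counts cannot be resolved at this depth.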

Other observations

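Families not covered by the gene lists were counted by symbol after their values had been seen, so these counts are a description. Hox genes of paralog groups 11 to 13 all had negative log2 fold changes (6 of 6, median -1.31, 3 called lower). Among all 15125 tested genes 7169 were negative and 1.36% were called lower. Of those of groups 9 and 10, 6 of 7 were negative (median -0.35), and Hoxb9 was called, with 1.501, 1.24 and 0.0723 CPM against 2.60, 2.48 and 5.73 (log2FC -1.96, adjusted p = 0.033), but not without LMP replicate 3 (log2FC -1.47, adjusted p = 0.16). In groups 1 to 8, 13 of 23 were positive and none was called by edgeR, also without the fold limit (median 0.13). The zinc finger genes Zic2 (35.9, 40.0 and 37.2 CPM against 112, 106 and 146, log2FC -1.69) and Zic5 (5.44, 9.65 and 6.84 CPM against 21.1, 19.4 and 23.0, log2FC -1.54) were called lower in OCPs.

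Of 70 tested genes of the axon guidance families (semaphorins, plexins, neuropilins, Slits and Robos, netrins and their receptors, ephrins and Ephs) 6 were called higher and 5 lower, with a median of 0.06. Among all tested genes 3.48% were called higher and 1.36% lower. Ntn1, which encodes the secreted netrin 1, had 162, 168 and 223 CPM in OCPs against 38.6, 29.3 and 20.5 in S9-Pαhi LMPs (log2FC 2.64, adjusted p = 7.9e-05), whereas its receptor Unc5b was lower in OCPs. Sema6a had 79.7, 115 and 115 CPM against 33.8, 39.1 and 29.5 (log2FC 1.59, adjusted p = 2.3e-05). The chemokine Cxcl12 (239, 231 and 255 CPM against 68.0, 63.7 and 41.1, log2FC 2.07, adjusted p = 0.0001) and its scavenging receptor Ackr3 (39.2, 34.0 and 43.7 CPM against 7.48, 5.72 and 5.63, log2FC 2.63, adjusted p = 3.1e-05) were both called higher. The homeobox gene Meox1 had 12.4, 18.4 and 18.2 CPM against 3.58, 2.75 and 2.09 (log2FC 2.53) and the helix-loop-helix gene Tcf15 22.3, 25.7 and 23.7 CPM against 7.60, 6.24 and 4.78 (log2FC 1.94), both called higher. The genes of this paragraph were chosen after their values were seen.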
